A study of Mus musculus with 18 samples.

Results

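miR-210 is a microRNA (miRNA) made from 1 hairpin precursor, whose arms give the mature forms miR-210-3p and miR-210-5p. Both were read in mouse kidney as the entries with exactly these mouse names, 2 of 1184 named entries of the deposited small RNA table, in all 18 libraries. The libraries formed 3 groups of 6. The treated group was C57BL/KsJ mice with diabetic nephropathy (DN) on germacrone, a sesquiterpene found in plants, given at 10 mg/kg/day. The DN group was C57BL/KsJ mice that received 0.9% saline, and the control group was C57BL/6J mice that also received 0.9% saline. Strain thus differed between controls and both DN groups, so in any comparison with control the effects of strain and of disease cannot be told apart. The labels give neither a genotype beyond the strain nor an age, and no label ties each library to its own animal. The p-values below then cover just the spread among these samples, part or all of which may be technical.

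miR-210 is best known as the miRNA that low oxygen raises in most cell types. Its gene is a direct target of the hypoxia-inducible factors (HIF), and miR-210-3p in turn represses proteins of mitochondrial respiration such as the iron-sulfur scaffold ISCU, and the ephrin EFNA3, as known from human cells. In kidney it has been studied mainly after ischemia. One arm of a miRNA hairpin, the guide, is usually kept in the silencing complex while most of the other, the passenger, is degraded, and miR-210-3p is the usual guide. The table holds no reading of oxygen or of HIF, so induction by hypoxia is background here and was not measured.

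The mature sequences are shown because the seed, bases 2 to 8 from the 5′ end and in capitals, sets which messages a miRNA can pair with, and the hairpin shows where the arms lie, with both mature arms in capitals. They are RefSeq sequences on build GRCm38.p6, minus strand.
mmu-miR-210-3p: cUGUGCGUgugacagcggcuga
mmu-miR-210-5p: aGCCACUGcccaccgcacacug
mmu-mir-210 hairpin: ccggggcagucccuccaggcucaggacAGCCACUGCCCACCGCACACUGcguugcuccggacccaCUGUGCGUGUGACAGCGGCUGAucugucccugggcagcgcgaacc
The hairpin of 110 bases lies at chr7:141221384-141221493, with miR-210-3p at chr7:141221407-141221428 and miR-210-5p at chr7:141221445-141221466. In GENCODE M21, 0 genes other than Mir210 overlap it, and the neighbouring genes are Rassf7 and Phrf1, both protein-coding. Of 1679 mature mouse miRNA names in the RefSeq table, 0 others share the seed of miR-210-3p and 0 share that of miR-210-5p. The values below therefore stand for the seed family of each arm as well as for the arm itself. For the deposited counts, the genome build is not stated in the sources used here.

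Library totals ran from 3645173 to 7239343 estimated counts. Kidney markers were present in every library, with the tubular miR-192-5p at 3880 to 35840 counts per 1000000 (CPM). The libraries DN 2, DN 3 and control 2 resembled their own groups least, with a median correlation of log2 CPM with the rest of the group of 0.896, 0.926 and 0.946, against 0.958 to 0.973 in the other libraries. All 3 had high miR-210-3p, at 346 CPM in DN 2, 271 in DN 3 and 353 in control 2. It was also high in treated 5 (609 CPM) and treated 3 (306 CPM), whose correlations with their group were 0.966 and 0.968.

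miR-210-3p was a miRNA of middle abundance and was detected in every library. Levels here are CPM scaled by the trimmed mean of M-values (TMM), a factor per library that offsets differences in composition. Its mean over all 18 libraries was 221 CPM, 176th from the top among the 619 entries that passed the filter on low counts. In treated kidneys it ran from 173 to 609 CPM with a median of 221, on 797 to 3246 reads. In DN kidneys it ran from 145 to 346 CPM with a median of 184, on 643 to 2381 reads. In control kidneys it ran from 88.8 to 353 CPM with a median of 130, on 364 to 2600 reads. The medians thus stood in the order treated, DN, control, and the ranges of all 3 groups overlapped.

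Group means were 288 ± 163 CPM in treated, 217 ± 76.1 CPM in DN and 159 ± 98.5 CPM in control kidneys (SD, n = 6 each). One library set much of the spread in 2 groups. Without treated 5, at 609 CPM, the treated mean was 224 ± 50.2 CPM, and without control 2, at 353 CPM, the control mean was 120 ± 28.5 CPM (n = 5 each). In DN, the high libraries were DN 2 at 346 CPM and DN 3 at 271 CPM. The rank of miR-210-3p inside a library, which no scaling between libraries can change, gave a like picture: it stood between 119th in treated 5 and 189th in treated 6, between 153rd in DN 2 and 206th in DN 5, and between 143rd in control 2 and 237th in control 5.

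**Figure D1:**
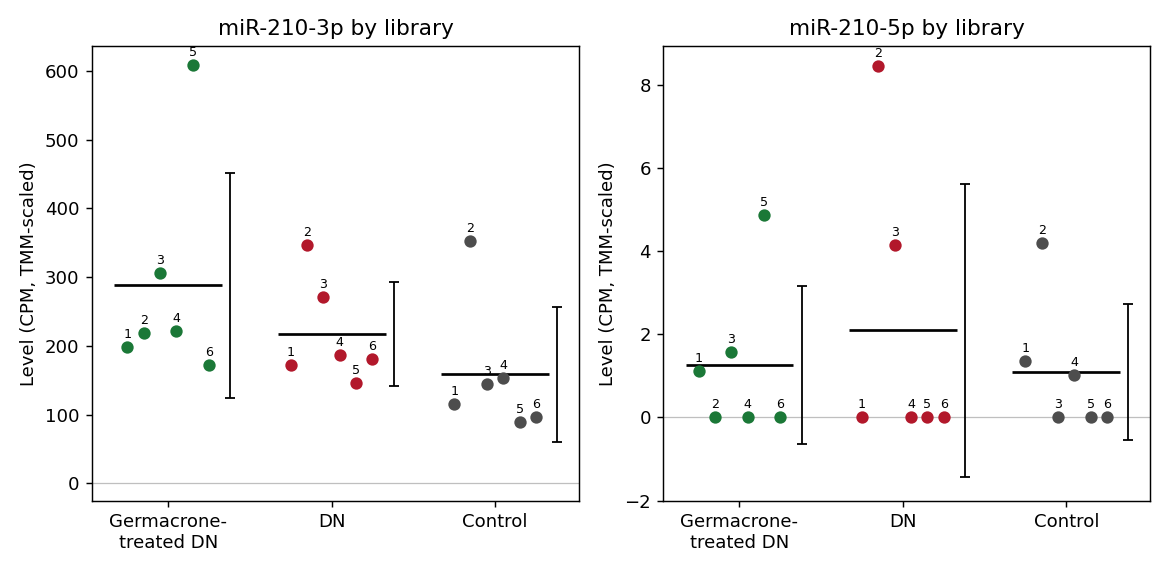
Level of miR-210-3p (left) and miR-210-5p (right) in CPM in each library, by group. Points carry the replicate number, bars are group means and whiskers 1 SD (n = 6), which for miR-210-5p reach below 0. Treated 5 (609 CPM) and control 2 (353 CPM) lie apart from their groups for miR-210-3p, and most miR-210-5p points sit at 0.

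The 4 libraries with the most miR-210-3p reads, treated 5, DN 2, DN 3 and control 2, were not alike in their cell type markers. They are set beside the other 14 libraries, which include treated 3 with 306 CPM of miR-210-3p. Over the 5 leukocyte markers, treated 5 summed to 1603 CPM, DN 2 to 21886, DN 3 to 1695 and control 2 to 3501, against 1276 to 8393 CPM in the other 14 libraries. Over the 2 endothelial markers, both arms of miR-126a, it was 19076 CPM in treated 5, whereas DN 2 had 8007, DN 3 had 8034 and control 2 had 9172 CPM, below the 14518 to 25978 CPM of the other 14. The 6 tubular and epithelial markers summed to 181897 CPM in treated 5, with DN 2 at 44245, DN 3 at 96560 and control 2 at 107383 CPM, against 95155 to 198342 CPM elsewhere. The red blood cell list (4 of 4 markers tested) spanned 1346 to 5364 CPM in treated, 1272 to 4287 in DN and 1817 to 3945 in control kidneys. For the smooth muscle list (3 of 3) the ranges were 40491 to 59473, 21914 to 51468 and 26269 to 58365 CPM in the same group order, and for striated muscle (2 of 3, miR-206-3p failing the filter) 51.4 to 122, 33.5 to 107 and 75.1 to 292 CPM. None of the markers tested was at 0 in any library. Their part in the miR-210 level was not tested, and in bulk tissue fewer cells of a type and less RNA per cell cannot be told apart.

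The comparison of treated with control kidneys asked how far germacrone-treated DN kidneys differ from those of control mice. It gave the largest difference of miR-210-3p among the 3 comparisons. All 6 treated libraries lay above the control median, a pattern that 17.1% of the 619 entries showed. Each treated library also lay above every control library except control 2, whose 353 CPM was above all treated libraries other than treated 5. The log2 fold change (log2FC) was 0.86 (SE 0.361, 95% interval 0.10 to 1.62), or 1.82-fold, with an unadjusted p = 0.0288 and an adjusted p = 0.202 by edgeR's quasi-likelihood test. The threshold, an adjusted p under 0.05 over all 619 entries, was not passed; it was passed by 0% of entries, and 19.5% had an unadjusted p under 0.05.

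The size of this difference turned on single libraries. It was 0.51 without treated 5 and 1.31 without control 2, with an adjusted p from 0.134 to 0.398 over all libraries left out in turn. It passed in 2 settings. With sample weights in limma-voom, which give deviant libraries less weight, the log2FC was 1.05 (adjusted p = 0.0139), where 17.1% of entries passed. Below, limma-voom always stands for this form with sample weights. Without control 2, DN 2 and DN 3 it was 1.24 (SE 0.277, 95% interval 0.66 to 1.83, 2.37-fold, edgeR adjusted p = 0.0188), where 7.86% of entries passed. That setting drops control 2, the highest control library for miR-210-3p (353 CPM), and keeps treated 5, the highest treated library (609 CPM). Its larger difference follows in part from that choice, so it is no independent check.

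For DN against control, which asked how diabetic nephropathy alters kidney miRNAs, miR-210-3p had a log2FC of 0.45 (SE 0.361, 95% interval −0.30 to 1.21, 1.37-fold, edgeR adjusted p = 0.807). All 6 DN libraries lay above the control median, which 1.78% of entries showed, yet none lay above control 2. Again 0% of entries passed the threshold, and 7.59% had an unadjusted p under 0.05. The log2FC was 0.94 without control 2 (adjusted p = 0.432), the largest value with any library left out. The interval reaches from a fall to a rise of more than 2-fold, so these libraries do not show miR-210-3p to be alike in both groups.

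Treated against DN asked what germacrone changes in DN kidneys. In 5 of 6 treated libraries miR-210-3p exceeded the median of DN kidneys, with a log2FC of 0.41 (SE 0.361, 95% interval −0.35 to 1.16, 1.33-fold, edgeR adjusted p = 0.809). This value rested on treated 5. Without that library the log2FC was −0.0015 (adjusted p = 0.996). The high DN libraries moved it the other way: without control 2, DN 2 and DN 3 it was 0.74 (95% interval 0.12 to 1.36, edgeR adjusted p = 0.954). That setting drops DN 2 (346 CPM) and DN 3 (271 CPM), the highest DN libraries, and keeps treated 5 (609 CPM). Its larger difference and its interval above 0 follow in part from that choice, so they are no independent check. In the fit of all 18 libraries 0% of entries again passed, and 3.72% had an unadjusted p under 0.05. The DN libraries enter both this comparison and the one with control, so the values of the 3 comparisons are not independent.

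**Figure D2:**
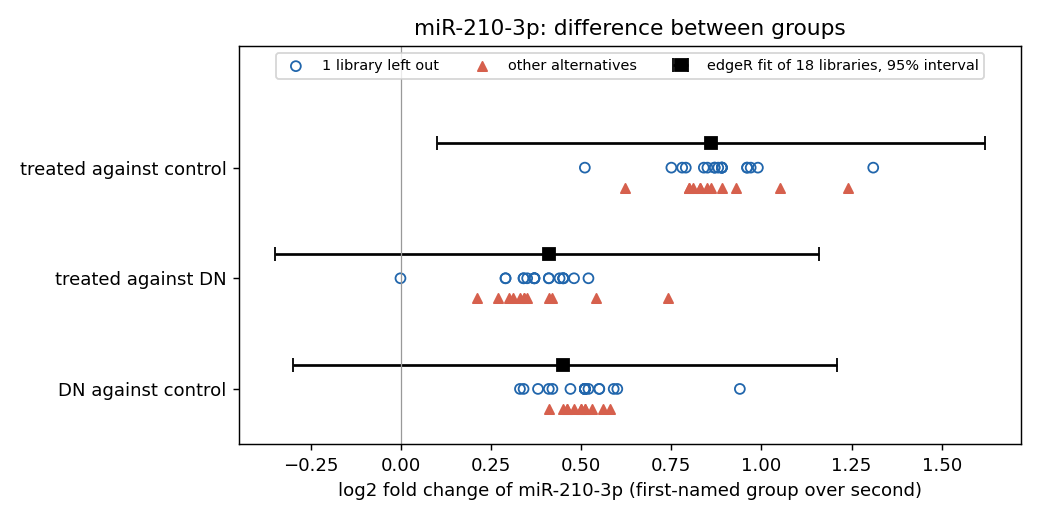
Log2 fold change of miR-210-3p in the 3 comparisons, first-named group over second. Squares with whiskers are the edgeR values with 95% intervals, circles the values with 1 library left out and triangles the other alternatives. Only for treated against control does the interval (0.10 to 1.62) lie above 0, and for treated against DN 1 circle falls at 0, without treated 5.

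miR-210-5p, the usual passenger arm, was near the limit of detection. It had 156 reads over all libraries, against 20156 for miR-210-3p, and was listed at 0 in 10 of 18 libraries. In treated kidneys it had 5, 5 and 26 reads in treated 1, 3 and 5. In DN kidneys it had 58 reads in DN 2 and 19 in DN 3. In control kidneys it had 7, 31 and 5 reads in control 1, 2 and 4. The 4 libraries with more than 7 reads were those with the most miR-210-3p reads, 1241 to 3246, and they came from all 3 groups. As levels, these were 4.88 CPM in treated 5, 8.44 in DN 2, 4.15 in DN 3 and 4.20 in control 2.

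A listed 0 for miR-210-5p may not mean that no read was present. Across the table, 0 of 11392 whole values above 0 were 1 and 20 were 2, while 196 were 3, 143 were 4 and 948 were 5. Values of 1 and 2 were thus nearly missing, for a reason that the sources used here do not state. The smallest value above 0 for either arm was 5. At the share of miR-210-5p over all libraries summed, 0.768% of the reads of both arms, the 10 libraries at 0 would hold 2.80 to 9.39 reads. This range lies on both sides of that smallest value of 5. Both arms had whole counts in all 36 values in the table.

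miR-210-5p failed the filter on low counts and was read from a fit of 1183 entries without a filter. Its log2FC was 0.17 in treated against control (SE 1.46, 95% interval −2.85 to 3.19, edgeR adjusted p = 1), −0.62 in treated against DN (SE 1.44, 95% interval −3.61 to 2.36, adjusted p = 0.977) and 0.79 in DN against control (SE 1.44, 95% interval −2.18 to 3.77, adjusted p = 0.95). In that fit 0% of entries passed in any comparison, and 16.2%, 7.52% and 9.13% had an unadjusted p under 0.05 in the same order. The intervals span more than 4 log2 units in every comparison, and the sign turned when DN 2 was left out of either DN comparison (0.47 for treated against DN, −0.29 for DN against control). No direction can be read for this arm at this depth.

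The share of miR-210-5p among the reads of both arms is a ratio inside a library. It was 0.795% in treated 5 (95% Wilson interval 0.543 to 1.16), 2.38% in DN 2 (1.84 to 3.06), 1.51% in DN 3 (0.967 to 2.34) and 1.18% in control 2 (0.831 to 1.67). Such intervals cover counting error only. The interval of DN 2 lay above those of treated 5 and control 2. DN 4 is a contrast within its group: it had 1222 reads of miR-210-3p, nearly as many as DN 3, and miR-210-5p was listed at 0. By group the share was 0.310 ± 0.353% in treated, 0.648 ± 1.04% in DN and 0.499 ± 0.577% in control kidneys (SD, n = 6 each). A listed 0 was taken as a share of 0%, in 3 treated, 4 DN and 3 control libraries. Since a listed 0 may not mean that no read was present, the means, SDs and test carry that limit. Each difference was smaller than the SD within the groups: −0.189 percentage points for treated against control, −0.337 for treated against DN and 0.148 for DN against control, each with an adjusted p = 0.773 over the 3 comparisons by a two-sided exact permutation test. With the reads of a group summed, the differences were −0.305, −0.614 and 0.309 percentage points in the same order, with no test.

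**Figure D3:**
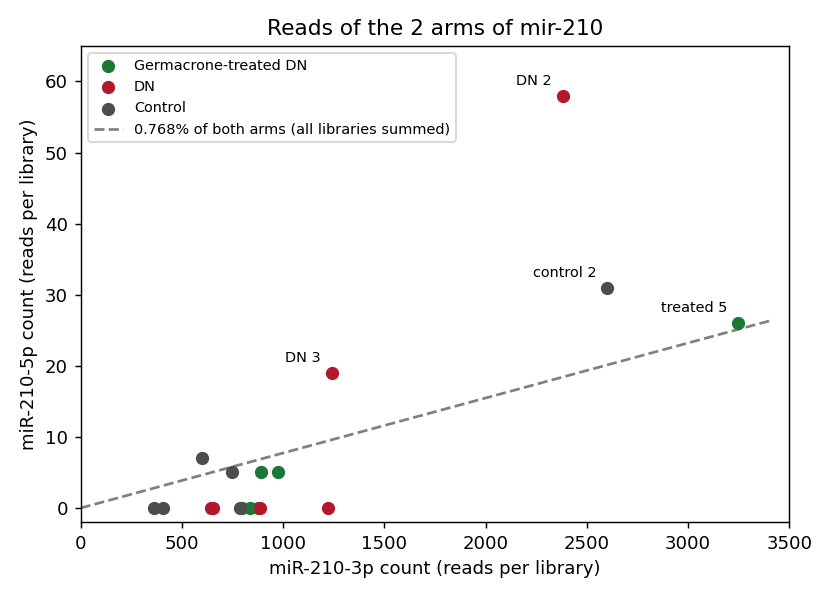
Reads of miR-210-5p against reads of miR-210-3p in each library, coloured by group, with the share over all libraries summed (0.768% of both arms) as a dashed line. DN 2 (58 reads of miR-210-5p), DN 3, control 1 and control 2 lie above the line, treated 5 (0.795%) close to it, and 10 libraries sit at 0.

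The arms moved together across libraries. Pearson's r of their log2 CPM was 0.67 over 18 libraries (permutation p = 0.00175, adjusted p = 0.00700 over 4 relations) and Spearman's rho 0.64 (permutation p = 0.00590, adjusted p = 0.0236). Within groups r was 0.85 in treated, 0.91 in DN and 0.82 in control kidneys (exact permutation p = 0.0333 and adjusted p = 0.0333 in each, n = 6), with rho at 0.70, 0.85 and 0.70 in the same order (exact permutation p = 0.167, 0.0667 and 0.167; adjusted p = 0.167, 0.133 and 0.167). Without treated 5 and control 5, the libraries farthest from the median of miR-210-3p, r was 0.60. In 10 libraries miR-210-5p has the same value, its 0, so it gives no order among them. The relation rests on the contrast of these 10 with the 8 others and on the order of those 8. In DN just 2 libraries were above 0, and p = 0.0333 is the smallest value that this exact permutation test of r can give there. Both arms also share the depth of their library.

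Other miRNAs tied to low oxygen are background for miR-210. Of 16 miRNAs reported to be induced by low oxygen in cells, both arms of miR-210 among them, 15 were tested. In treated against control 7 were higher and 8 lower, with a median log2FC of −0.02, against −0.00 over all entries. In treated against DN 6 were higher and 9 lower, with a median of −0.01, against −0.05. In DN against control 8 were higher and 7 lower, with a median of 0.03, against 0.08. miR-210-3p lay toward the upper end in each comparison, and 1, 0 and 2 members had a larger log2FC in the same order. By edgeR, 0 members passed the threshold in any comparison. At an unadjusted p under 0.05, 2 were higher in treated against control (miR-210-3p and miR-21a-5p; 10.7% of all entries were), 1 was lower in treated against DN (miR-155-5p; 2.91%) and 1 was higher in DN against control (miR-21a-5p; 5.17%).

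Of the members above it, miR-21a-5p, known for its rise with kidney injury and fibrosis, averaged 72484 ± 28086 CPM in treated and 31725 ± 14520 CPM in control kidneys (log2FC 1.19, SE 0.400, edgeR adjusted p = 0.173). In DN it averaged 78013 ± 56802 CPM (log2FC 1.30 against control, adjusted p = 0.277, and 0.82 without DN 2). miR-155-5p, of activated immune cells, had a log2FC of 0.91 in DN against control (adjusted p = 0.706), which was −0.56 without DN 2. In treated against DN it had a log2FC of −1.58 (adjusted p = 0.800) although 5 of 6 treated libraries exceeded the median of DN kidneys, and −0.11 without DN 2. miR-322-5p, the rodent counterpart of human miR-424, averaged 678 ± 109 CPM in treated and 428 ± 214 CPM in control kidneys (log2FC 0.66, adjusted p = 0.313, above the control median in 6 of 6). miR-24-3p had 0.22 in that comparison, and in treated against DN miR-181b-5p had −0.36 (−0.22 without DN 3) and miR-26a-5p 0.16 (0.07 without DN 1 and 0.09 without DN 2).

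The second list held 11 miRNAs reported to act on HIF or its regulators, of which 10 were tested and miR-135b-5p failed the filter. Treated against control had 8 higher and 2 lower (median log2FC 0.24, against −0.00 over all entries), treated against DN 4 and 6 (−0.08, against −0.05) and DN against control 9 and 1 (0.27, against 0.08). By edgeR, 0 passed the threshold in any comparison, and at an unadjusted p under 0.05 there were 0 in treated against control, 1 lower in treated against DN (2.91% of all entries were) and 1 higher in DN against control (5.17%), both being miR-138-5p. miR-199a-5p, reported to restrain Hif1a in rat heart cells, averaged 808 ± 156 CPM in treated and 579 ± 96.6 CPM in control kidneys (log2FC 0.48, edgeR adjusted p = 0.365), with all 6 treated libraries above the control median. Its log2FC of 0.51 in DN against control was 0.08 without DN 2, and that of miR-199a-3p, 0.38, was 0.03. miR-18a-5p of the Mir17 host gene cluster had 0.72 in DN against control (adjusted p = 0.618), which was 0.31 without DN 2.

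miR-138-5p, reported to act on HIF1A in human cells, averaged 7.87 ± 1.16 CPM in treated and 12 ± 3.69 CPM in DN kidneys (log2FC −0.60, adjusted p = 0.800, below the DN median in 6 of 6), and DN against control gave 0.59 (adjusted p = 0.529, 7.91 ± 1.47 CPM in control). Without DN 2 these were −0.58 and 0.57. miR-429-3p, of the epithelial miR-200 family, had 0.50 in treated against control (adjusted p = 0.298) and 0.33 in treated against DN, and miR-20b-5p had 0.42 (adjusted p = 0.332) and 0.43. For both, all 6 treated libraries lay above the control median, but without DN 2 the values of treated against DN were 0.15 for miR-429-3p and 0.28 for miR-20b-5p.

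**Figure D4:**
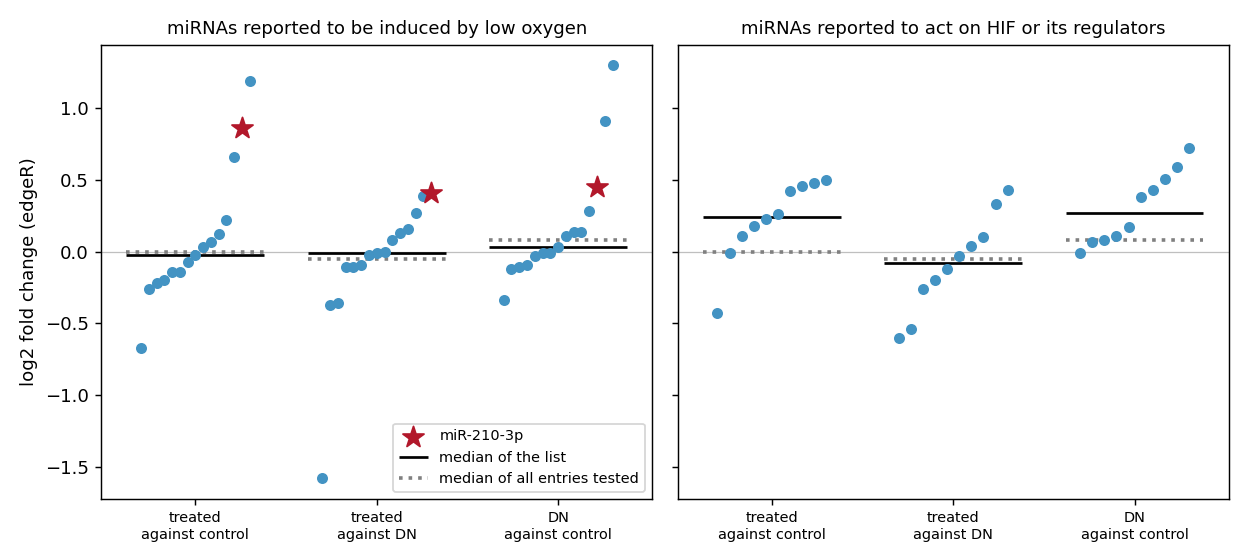
Log2 fold change of each tested member of the list of miRNAs reported to be induced by low oxygen (left, 15) and of those reported to act on HIF or its regulators (right, 10), in the 3 comparisons. The star is miR-210-3p, the solid line the median of the list and the dotted line the median of all 619 entries. miR-210-3p lies near the top of its list at 0.86, 0.41 and 0.45, while the list medians lie between −0.02 and 0.03.

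The miRNAs whose level followed miR-210-3p most closely over the 18 libraries were taken from 327 mouse miRNAs with a mean of at least 10 CPM, by Pearson's r of log2 CPM. They were miR-224-5p (r = 0.76), encoded in an intron of Gabre, miR-183-5p (0.76) and miR-182-5p (0.73), which come from 1 cluster known from sensory organs, miR-362-5p (0.75), from the X-linked Clcn5 intron, and miR-152-5p (0.74), from an intron of Copz2. With group means taken off, r was 0.73, 0.81, 0.75, 0.63 and 0.65 in that order. Without control 2 and treated 5 it was 0.72, 0.69, 0.65, 0.67 and 0.61. All share the library and its scaling with miR-210-3p, and these values are a description of miRNAs picked for their r.

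In treated 5, DN 2, DN 3 and control 2, these miRNAs were not uniformly high. miR-183-5p was at 388 CPM in treated 5, 503 in DN 2, 221 in DN 3 and 359 in control 2, with group means of 275 ± 90.9, 242 ± 137 and 232 ± 80.5 CPM in treated, DN and control kidneys. Its log2FC was 0.24 in treated against control (edgeR adjusted p = 0.729), below that of miR-210-3p. Of the 5, miR-362-5p had the smallest adjusted p in treated against control, at 379 ± 72.4 CPM in treated and 283 ± 46.8 CPM in control kidneys (log2FC 0.42, SE 0.169, adjusted p = 0.193). miR-152-5p had 0.53 (adjusted p = 0.332), miR-182-5p 0.51 (adjusted p = 0.371) and miR-224-5p 0.45 (adjusted p = 0.474) in that comparison.

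At the other end, miR-374b-5p had the most opposed pattern (r = −0.78, and −0.74 with group means taken off), followed by miR-196b-5p of a Hox locus (−0.66 and −0.77) and the let-7 family member miR-98-5p (−0.62 and −0.63). miR-374b-5p was at 419 ± 110 CPM in treated, 451 ± 79.6 CPM in DN and 517 ± 120 CPM in control kidneys, with its lowest values of each group in treated 5 (263 CPM), DN 3 (331 CPM) and control 2 (306 CPM). Without control 2 and treated 5, r was −0.60, −0.51 and −0.40 for the 3 miRNAs.

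**Figure D5:**
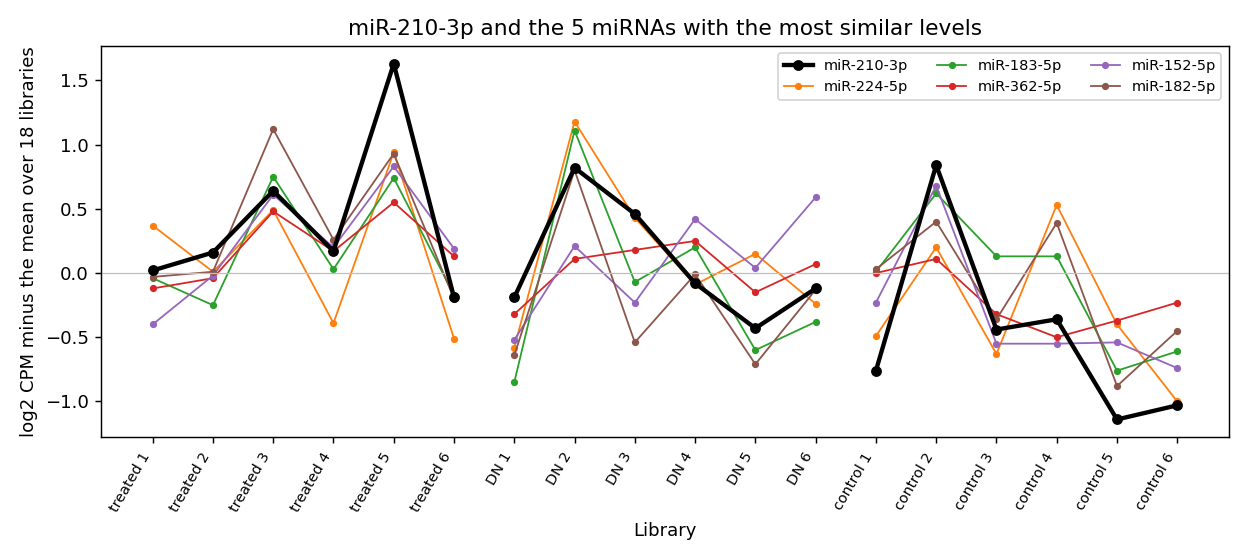
Log2 CPM of miR-210-3p (black) and of the 5 miRNAs with the highest r to it (0.73 to 0.76), each minus its mean over 18 libraries. Lines only join the points of 1 miRNA within a group, since libraries have no order. miR-210-3p is highest of its group in treated 5, DN 2 and control 2. Of the others, miR-224-5p is so in treated 5 and DN 2, and miR-183-5p and miR-182-5p in DN 2 and control 2. For miR-362-5p and miR-152-5p it holds in treated 5 and control 2.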

How the data were processed

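Small RNA of kidney was sequenced in 18 libraries, 6 in each of 3 groups. Per the labels, RNA was extracted with Trizol, libraries were made with a TruSeq Small RNA kit and run on an Illumina HiSeq, and reads were cleaned with ACGT101-miR (adapter dimers, junk, low complexity, other RNA families, repeats). Trimmomatic 0.32, edgeR, SAMtools and BWA are named, without a role, per the submitters' processing notes. The raw columns deposited by the authors hold estimated counts, 76.9% of the values above 0 being whole. The normalized columns deposited by the authors hold a signal: within each library it is the raw value multiplied by a constant (0.6644 to 1.427), used only as an alternative. Reads dropped in that cleaning are not in the counts.

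Of 1534 entries, 350 without a name (0.0136% to 0.148% of a library) were left out. Estimated counts were rounded (largest change of a total 0.00044%) and all 18 libraries entered 1 model with the group as factor (edgeR 4.0.16, limma 3.58.1 and DESeq2 1.42.0, under R 4.3.3). filterByExpr (minimum count 10, minimum total 15) kept 619 entries. TMM factors, the legacy quasi-likelihood test, two-sided, and Benjamini-Hochberg adjustment over all entries were used. Log2 CPM used a prior count of 2, and correlations used 100000 resamples or, with 6 libraries, all orders. The method was tested on simulated data.

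The members and the lists were chosen with earlier results of these data known. miRNAs named beside miR-210 were the 5 most and 3 least alike, and up to 6 members of the low-oxygen lists of smallest p in each comparison.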

Additional observations from a re-analysis of the deposited data

Results flagged for a closer look

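In treated kidneys, treated 5 lay far from the other 5 libraries for miR-210-3p (609 CPM) and for miR-210-5p (4.88 CPM). In control kidneys, control 2 did so for miR-210-3p (353 CPM) and for miR-210-5p (4.20 CPM). In each case the gap to the next library, as a share of the range of the group, was 0.678 to 0.757, above Dixon's 95% critical value for 6 libraries. For normally distributed values chance flags about 1 in 20 groups, and 9 were examined, 3 measures in 3 groups. That rate need not hold here, since miR-210-5p was listed at 0 in 3 treated, 4 DN and 3 control libraries. The flags of both arms fell on the same libraries, so they are not independent. The share of miR-210-5p in both arms was not set apart in either library, with a gap of 0.299 of the range in treated and 0.021 in control kidneys. In DN, where 2 libraries were high, the gaps were 0.375 for miR-210-3p and 0.508 for miR-210-5p.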

How the results depend on the processing

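For miR-210-3p the log2FC kept its sign and stayed past or short of the threshold in all 30 alternatives for DN against control (0.33 to 0.94). The same held in 29 of 30 for treated against DN (−0.0015 to 0.74) and in 28 of 30 for treated against control (0.51 to 1.31). Exceptions were treated against DN without treated 5 (−0.0015; range with libraries left out in turn −0.0015 to 0.52) and treated against control with limma-voom (1.05) and with control 2, DN 2 and DN 3 left out (1.24). An exact permutation test of log2 CPM, added after seeing the data, gave differences of 0.89 for treated against control (p = 0.0519, adjusted p = 0.156), 0.33 for treated against DN (adjusted p = 0.370) and 0.56 for DN against control (adjusted p = 0.231). Library size alone moved the median log2FC of all entries by −0.20 in treated against control and by −0.14 in treated against DN, where miR-210-3p was then at 0.62 and 0.21.

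miR-210-5p turned sign for treated against control with library size only (−0.07) and over libraries left out (−1.05 to 1.37). For treated against DN it did so on the authors' normalized values (0.04), with limma-voom (1.90), with the replicate block (0.43), without control 2, DN 2 and DN 3 (5.61, with the DN libraries then all at 0, so no fold can be read), and over libraries left out (−1.84 to 0.47). For DN against control it did so with limma-voom (−1.03), the replicate block (−0.24), the same 3 libraries out (−4.20, likewise) and over libraries left out (−0.29 to 1.91). It did not pass the filter of 10 CPM in 6 libraries, so that alternative gave no value. The share of this arm turned sign on the log2 ratio of the arms (0.0327 for treated against DN, −0.748 for DN against control, in log2 units) and over libraries left out (−0.467 to 0.00870 percentage points for treated against DN, −0.198 to 0.284 for DN against control), and for treated against control it ran from −0.289 without control 3 to −0.0532 without control 2. The relation of the arms held in all 20 alternatives, at r = 0.61 to 0.75.

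The main edgeR fit called 0 entries in each comparison. The other fits named here are also edgeR's unless limma-voom or DESeq2 is given. For treated against control, limma-voom with sample weights called 106, a fit to just these groups 56 and DESeq2 18. The fit without control 2, DN 2 and DN 3 called 50, and the fits without 1 library 0 to 7. For DN against control, the filter of 10 CPM in 6 libraries gave 2, DESeq2 4, limma-voom 91, the fit without these 3 libraries 51, and the fits without 1 library 0 to 6. For treated against DN each of the 29 alternatives gave 0. The causes were not tested.

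Groups share the replicate numbers 1 to 6, but the labels tie no animals to them, and same-numbered libraries correlated at −0.33 to 0.26 in their deviations from group means, over 0.1 in 3 of 6 pairs for DN against control and in 0 of 6 for the others. As a replicate block the numbers gave miR-210-3p a log2FC of 0.93 for treated against control (edgeR adjusted p = 0.212), 0.41 for treated against DN and 0.53 for DN against control. Depth limits miR-210-5p, whose reads were 5 to 58 where listed.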

Other observations

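The table has 2 further entries of miR-210-3p, with the prefix mdo, which stands for the opossum. One was listed only in DN 2 (7 reads) and the other only in control 2 (8 reads), both libraries with high miR-210-3p. They were not added to the mouse entry.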
